A study of Saccharomyces cerevisiae with 15 samples.

Results

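Haploid wild-type strains of budding yeast (Saccharomyces cerevisiae), WT1A of mating type a and WT1B of mating type alpha, were compared gene by gene on 6 Affymetrix Yeast Genome 2.0 arrays out of the 15 of the series. The samples were chosen by their titles, 3 biological replicates of WT1A and 3 of WT1B. WT1A is strain W303-1AR5 and WT1B is strain W303-1BR5, and both carry RAD5, can1-100 and the auxotrophic marker alleles trp1-1, his3-11,15, ura3-1 and ade2-1, and the same mutant allele of LEU2. The remaining 9 arrays hold an a strain with the rpb2-10 allele and 2 alpha strains with rpb1-1 or rpb1S751F, alleles of genes for RNA polymerase II subunits. Cultures were in mid-log phase in YPAD, and the labels give no growth temperature. Each group is 1 strain, so a difference between the groups can come from mating type or from any other difference between these strains.

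The mating type of a haploid yeast cell is set by the MAT locus. In alpha cells, the alpha1 protein works with Mcm1 to switch on alpha-specific genes, and the alpha2 protein works with Mcm1 to shut off a-specific genes. In a cells neither protein is made, so a-specific genes are on by default and alpha-specific genes stay off. Complete silent copies of both kinds of MAT information lie at HML and HMR and are kept off by the Sir proteins.

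The deposited values are log2 levels. Their array medians lay between 7.80 and 7.83 in WT1A and between 10.04 and 10.07 in WT1B, with the 3 rpb2-10 arrays near WT1A and the 6 rpb1 mutant arrays near WT1B. The a and alpha arrays therefore look like sets normalized apart, and array set and mating type cannot be told apart. All levels below are log2 values after subtraction of the array's median, and a difference is WT1A minus WT1B with its SE from a limma fit of 3 arrays per group. The median SD between replicates was 0.07 in WT1A and 0.11 in WT1B. As a measure of background, the 95th percentile of 1746 probe sets for another species lay between -6.12 and -5.97 on the WT1A arrays and between -6.00 and -5.86 on the WT1B arrays.

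All 7 a-specific genes were higher in WT1A, with differences of 2.15 to 7.15, and all 5 alpha-specific genes were lower, with differences of -9.58 to -2.72. No array of one wild type overlapped the other for any of these genes, which also held for 72.2% of all genes (38.6% higher, 33.6% lower). A gene was called at a limma p below 0.05 after Benjamini-Hochberg adjustment over 5449 genes. By that rule 34.6% of all genes were called higher and 29% lower, so the sizes carry more information here than the calls.

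The genes for the pheromone a-factor had high levels in WT1A. MFA2 had levels of 2.14, 2.24 and 2.29 in WT1A, against -4.85, -4.86 and -5.07 in WT1B. MFA1, the other a-factor gene, had 1.10, 1.16 and 1.26 in WT1A, against -2.49, -3.06 and -2.79 in WT1B. The differences were 7.15 ± 0.11 for MFA2 (142-fold) and 3.96 ± 0.13 for MFA1 (15.5-fold), although both genes encode a-factor. STE6, the transporter that exports a-factor, had 1.91, 2.05 and 2.06 in WT1A, against -2.73, -2.57 and -2.45 in WT1B.

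STE2 encodes the receptor with which a cells sense alpha-factor. Its levels were 2.85, 2.87 and 2.89 in WT1A, against -3.29, -3.01 and -3.19 in WT1B, a difference of 6.03 ± 0.10. BAR1, a secreted protease that degrades alpha-factor, had 1.90, 2.05 and 1.95 in WT1A, against -3.08, -2.90 and -3.05 in WT1B. The spread between the replicates of either wild type was far smaller than this difference of 4.98 ± 0.11. AGA2, a subunit of the a-agglutinin that binds mating partners, had -0.62, -0.60 and -0.64 in WT1A, against -5.27, -4.84 and -4.84 in WT1B. ASG7, which regulates signalling from the G protein beta subunit Ste4, had the smallest difference of the 7 genes, with -2.77, -2.62 and -2.83 in WT1A and -4.83, -5.18 and -4.66 in WT1B.

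The alpha-factor genes showed the opposite pattern. MF(ALPHA)1, the main alpha-factor gene, had levels of -6.20, -5.79 and -5.95 in WT1A, against 3.71, 3.52 and 3.58 in WT1B. The WT1A values lay at the background, which only 2 of the 3 arrays exceeded, and the difference of -9.58 ± 0.19 was the lowest of all tested genes. MF(ALPHA)2, the minor alpha-factor gene, had -5.28, -5.12 and -4.99 in WT1A, against 3.02, 2.65 and 2.68 in WT1B. STE3, the receptor for a-factor, had -3.89, -3.84 and -3.84 in WT1A, against 1.82, 2.00 and 2.02 in WT1B.

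The last 2 alpha-specific genes stayed well above background in WT1A. AFB1, which encodes a barrier protein against a-factor, had -1.19, -1.04 and -1.03 in WT1A, against 3.42, 3.35 and 3.44 in WT1B. SAG1, the alpha-agglutinin that pairs with the a-agglutinin, had -1.09, -0.89 and -1.11 in WT1A, against 1.82, 1.71 and 1.54 in WT1B. SAG1 thus had the smallest difference of the 5 genes, -2.72 ± 0.14.

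**Figure D1:**
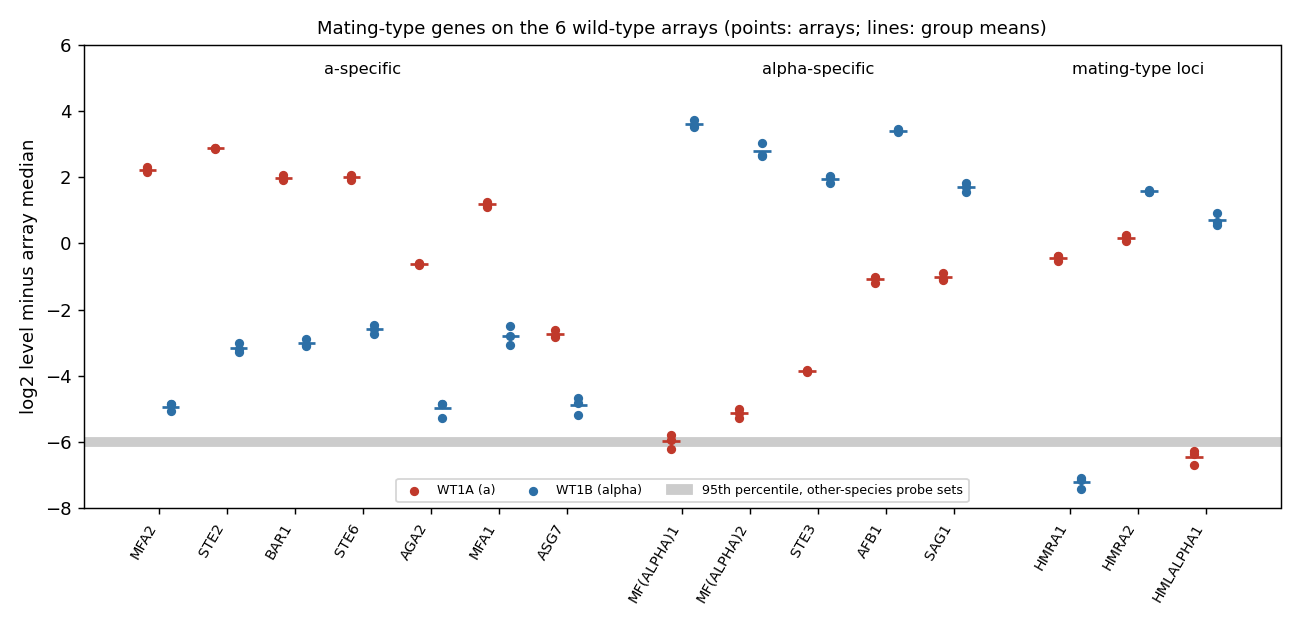
Log2 level minus the array median (y axis) of the a-specific, alpha-specific and mating-type locus genes on the 3 WT1A arrays (red, left) and the 3 WT1B arrays (blue, right), with points for arrays and lines for group means. The grey band spans the background percentile of the 6 arrays, which MF(ALPHA)1 and HMLALPHA1 meet or fall under in WT1A and HMRA1 falls under in WT1B.

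Of 8 listed genes at MAT, HML and HMR, 3 had a tested probe set. HMRA1, whose sequence is also that of MATa1, had -0.38, -0.52 and -0.38 in WT1A, against -7.13, -7.41 and -7.07 in WT1B. All 3 WT1B arrays were at or below background, so HMRA1 was higher in WT1A by at least 5.52 on the log2 scale (measured difference 6.78 ± 0.09). HMLALPHA1, whose probes also match the copy at MAT in an alpha cell, had -6.36, -6.70 and -6.28 in WT1A, against 0.91, 0.64 and 0.57 in WT1B. Here all 3 WT1A arrays were at or below background, and the measured difference was -7.15 ± 0.14 with a bound of -6.74. Haploid strains normally hold both silent copies, so these values are sums over the locus that is on and the copies that are off.

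HMRA2 shares sequence with the alpha2 gene and was measured in both strains, at 0.06, 0.24 and 0.21 in WT1A, against 1.62, 1.54 and 1.55 in WT1B. Its difference of -1.40 ± 0.09 was the smallest of the 3. Among the genes beside MAT, PHO87, a phosphate transporter gene, had a difference of 1.01 ± 0.07 and BUD5, a bud site selection gene, 0.39 ± 0.10. TAF2, a subunit of TFIID, had 0.32 ± 0.10, while RBK1 and YCR043C were not called at -0.01 ± 0.08 and -0.12 ± 0.09. These neighbours were looked up because of their place.

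The mutant arrays offer a second comparison of an a strain with alpha strains that uses none of the 6 wild-type arrays. It has the same array sets as the wild types and adds the differences between the polymerase alleles. In rpb2-10 minus the mean of both rpb1 mutants, 74.7% of all genes were called, 40.2% higher and 34.5% lower. All 7 a-specific genes were called higher and all 5 alpha-specific genes lower in this comparison. Against each rpb1 mutant on its own, a split chosen after seeing the data, all 7 a-specific genes were called higher each time (41.7% of all genes against rpb1-1, 35.6% against rpb1S751F). Of the 5 alpha-specific genes, 4 were called lower against rpb1-1 (33.5% of all genes) and 5 against rpb1S751F (34.3%). The exception was SAG1, with mean levels of -1.01 in rpb2-10, -1.07 in rpb1-1 and 1.85 in rpb1S751F. Its difference was 0.0601 ± 0.14 against rpb1-1 (limma adjusted p = 0.703) and -2.86 ± 0.14 against rpb1S751F. BAR1 had 7.35 in the mutants beside 4.98 in the wild types, MFA2 6.28 beside 7.15 and STE2 6.64 beside 6.03. MF(ALPHA)1 was at background on all 3 rpb2-10 arrays, which bounds its pooled difference at -8.48 (measured -8.58), beside -9.58 in the wild types. MF(ALPHA)2 had -2.76, again a mean over both mutants, beside -7.91. The pooled -2.10 of STE3 describes neither mutant, since rpb2-10 minus rpb1-1 was -0.37 ± 0.14 and rpb2-10 minus rpb1S751F was -3.83 ± 0.14, beside -5.80 in the wild types. Whether the values of the wild types and the mutants differ was not tested.

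**Figure D2:**
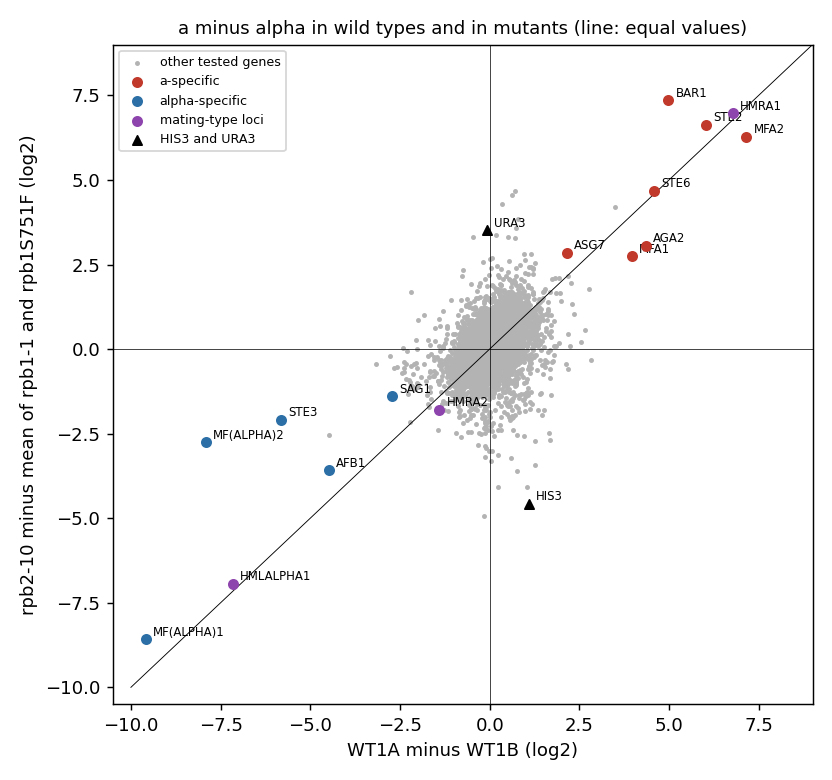
Difference between the wild types (x axis, WT1A minus WT1B) and between the mutants (y axis, rpb2-10 minus the mean of rpb1-1 and rpb1S751F), both in log2, 1 point per tested gene and a line of equal values. The a-specific genes lie in the upper right and the alpha-specific genes in the lower left, with MF(ALPHA)2 and STE3 nearer to 0 in the mutants, while HIS3 (1.09 and -4.57) and URA3 (-0.08 and 3.51) lie off the line. Mean levels of URA3 were 1.93 in rpb2-10, -4.73 in rpb1-1 and 1.56 in rpb1S751F, so its pooled value rests on rpb1-1. Those of HIS3 were -5.63 in rpb2-10, near background, -1.31 in rpb1-1 and -0.81 in rpb1S751F.

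Genes listed as haploid-specific had calls in both directions. Of 13 such genes, 3 were called higher in WT1A, 3 were called lower and 7 were not called. Among all genes, 34.6% were called higher and 29% lower. The heterotrimeric G protein of the pheromone pathway has an alpha subunit, GPA1, a beta subunit, STE4, and a gamma subunit, STE18. STE18 had -2.42, -2.38 and -2.38 in WT1A, against -0.79, -0.84 and -0.58 in WT1B, a difference of -1.66 ± 0.10. GPA1 had a difference of -0.50 ± 0.10, and STE4 was not called at 0.04 ± 0.10 (adjusted p = 0.714). The 3 subunits therefore had different values in the same arrays.

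AXL1, a protease needed for a-factor maturation and for axial budding, had -0.02, 0.00 and -0.14 in WT1A, against -1.28, -1.44 and -1.29 in WT1B. STE5, the scaffold of the pheromone kinases, was higher by 0.63 ± 0.06, and RDH54, a recombination gene, by 0.60 ± 0.08. NEJ1, a gene of DNA end joining, had -0.39 ± 0.12, and its call was lost after centring within bins of coding length and without WT1B replicate 1. FAR1, FUS3, HO, SST2, STE12 and RME1 were not called, with differences between -0.23 and 0.11. Some settings did call them, namely FAR1 at -0.49 and FUS3 at -0.40 when centred on the other species' probe sets, FAR1 at -0.30, FUS3 at -0.19 and RME1 at 0.20 with array weights, and FAR1 at -0.53 and SST2 at -0.33 after centring by length.

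Of 23 pheromone response genes, 4 were called higher, 7 lower and 12 not (all genes: 34.6% higher, 29% lower). ASG7 is one of those 4, and PRM10, a pheromone-regulated membrane protein gene, had 1.70 ± 0.12. FUS1, a gene for cell fusion, had a difference of -1.66 ± 0.18, with -2.50, -2.31 and -2.33 in WT1A against -0.47, -0.75 and -0.96 in WT1B. It was singled out after its values were seen. FIG1, a membrane protein of mating, had a difference of -1.10 ± 0.11, with 2 of 3 WT1A arrays above background. Of 11 pheromone processing and export genes 6 were called higher and 1 lower, STE6 and AXL1 among them. Of 17 mating-type regulation and silencing genes 11 were called higher and 4 lower, and SIR1, which helps to set up silencing at HML and HMR, had 1.57 ± 0.15. The median differences of these last 2 lists, 0.20 and 0.24, became -0.05 and -0.02 when the arrays were centred on the other species' probe sets.

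Both wild types carry the same marker alleles per the labels. Of 6 measured marker genes, 4 were called higher in WT1A and 1 lower. Among all genes, 34.6% were called higher and 29% lower. CAN1, the arginine permease, had 1.66, 1.64 and 1.47 in WT1A, against 0.25, 0.60 and 0.06 in WT1B. HIS3, of histidine synthesis, had 0.49, 0.80 and 0.23 in WT1A, against -0.57, -0.66 and -0.51 in WT1B. ADE2, of adenine synthesis, differed by 0.85 ± 0.12, and LEU2, of leucine synthesis, by 0.77 ± 0.13. RAD5, a DNA repair gene, had -0.37 ± 0.07, and URA3, of uracil synthesis, was not called at -0.08 ± 0.16. Both genes of the largest polymerase subunits were called at 1 log2 or more, as were 7.74% of all genes. Neither strain carries a mutation in them per the labels. RPO21, the largest subunit, had 0.10, 0.14 and 0.05 in WT1A, against 1.35, 1.22 and 1.16 in WT1B. RPB2, the second largest, had 2.53, 2.45 and 2.52 in WT1A, against 1.28, 1.40 and 1.23 in WT1B.

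Across the genome, 3466 of 5449 genes were called between WT1A and WT1B (63.6%), 1887 of them higher and 1579 lower. Centring on the other species' probe sets, which moved the median difference of all genes to -0.23, turned that split to 1058 higher and 2587 lower. At 1 log2 or more, 422 genes were called (7.74%), 264 of them higher (4.84%) and 158 lower (2.9%). The other centring gave 128 higher and 366 lower at that size. The median absolute difference was 0.36, and 21 genes were higher and 36 lower by 2 or more. At 4 or more there were 6 genes on each side, and all but YDR524W-C belong to the mating lists.

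**Figure D3:**
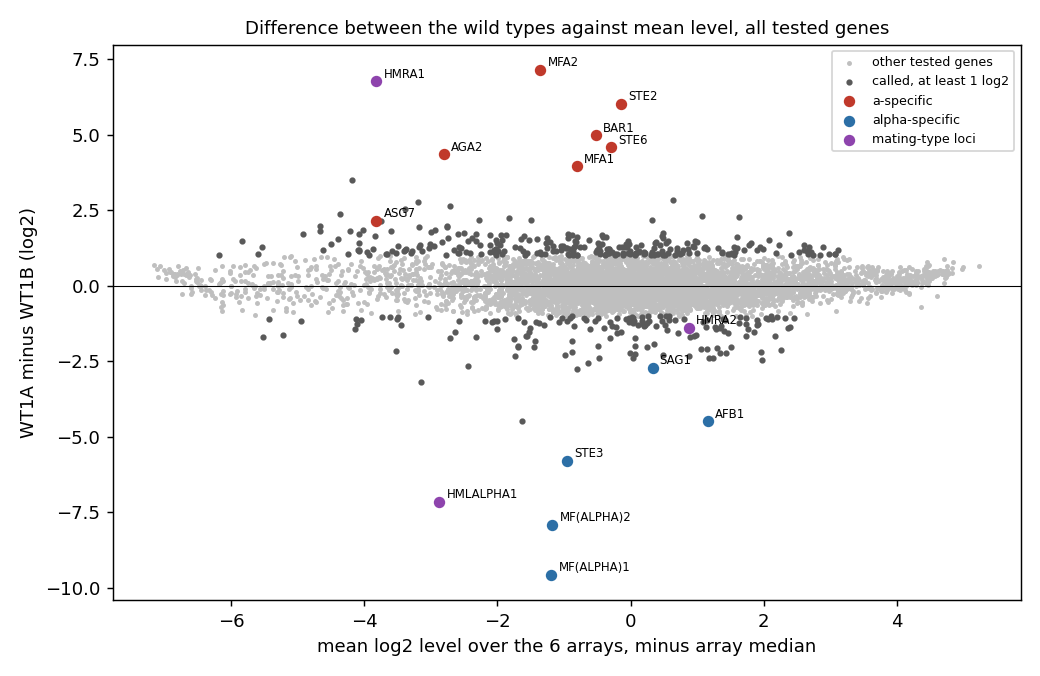
Difference WT1A minus WT1B (y axis, log2) against the mean level of the gene on the 6 arrays (x axis, log2 minus array median), 1 point per tested gene. Dark grey points are genes called at 1 or more, and the coloured mating genes reach from -9.58 to 7.15.

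The highest genes outside the mating lists were mostly little-studied reading frames and genes of metabolism. YNL146C-A had -2.58, -2.36 and -2.36 in WT1A, against -6.01, -6.03 and -5.79 in WT1B, where 1 array was above background. It lies close to MFA2, and YNL146W, which lies between them in the RefSeq annotation, had the opposite sign at -1.74 ± 0.14. GEM1, a GTPase of the outer mitochondrial membrane, had a difference of 2.77 ± 0.17. PDR12, a transporter of weak acids, had 2.31 ± 0.12 and LYS2, of lysine synthesis, 2.27 ± 0.08. YER053C-A, at 2.84 ± 0.41, had 2.08, 2.12 and 1.97 in WT1A, against -1.27, -1.28 and 0.22 in WT1B. Its WT1B replicate 3 lay apart from the other two but below all WT1A arrays.

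The lowest genes outside the mating lists were short. YDR524W-C, a reading frame of 90 bases, had -3.83, -3.98 and -3.81 in WT1A, against 0.48, 0.69 and 0.67 in WT1B. DAD2 and DAD4, subunits of the DASH complex that ties kinetochores to microtubules, had -2.57 ± 0.11 and -2.41 ± 0.12. POP5, a subunit of RNase P and RNase MRP, had -2.38 ± 0.09, and AIM29 had -2.46 ± 0.07. GPX2, a peroxidase, had -2.29 ± 0.12 and ATX1, a copper chaperone, -2.19 ± 0.10.

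The difference moved with coding length, here the length of the annotated gene in bases. It was a multiple of 3 for 96.97% of genes. For the others, as for HMRA1 with 487 bases, it was not the length of a reading frame alone. The median difference was -0.46 in genes of over 200 and up to 300 bases, -0.23 in genes of over 600 and up to 900 and 0.43 in genes over 3000. Genes up to 200 bases did not follow this order, with a median of 0.04, although 12.7% of them were called lower by 1 or more. Of the 158 genes called lower by 1 or more, 105 had 600 bases or less (66.5%, against 16.7% of all genes). Of the 264 called higher, 180 had over 1500 bases (68.2%, against 38.6% of all genes). Across genes, Spearman's rho of length and difference was 0.49 in the wild types and 0.28 in the mutants, and genes are not independent replicates. The part of coding length in the results was not tested. Centring within 8 bins of coding length, an alternative chosen after seeing the data, called 3126 genes, of which 2253 were among the 3466, and its 344 large calls held 219 of the 422.

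**Figure D4:**
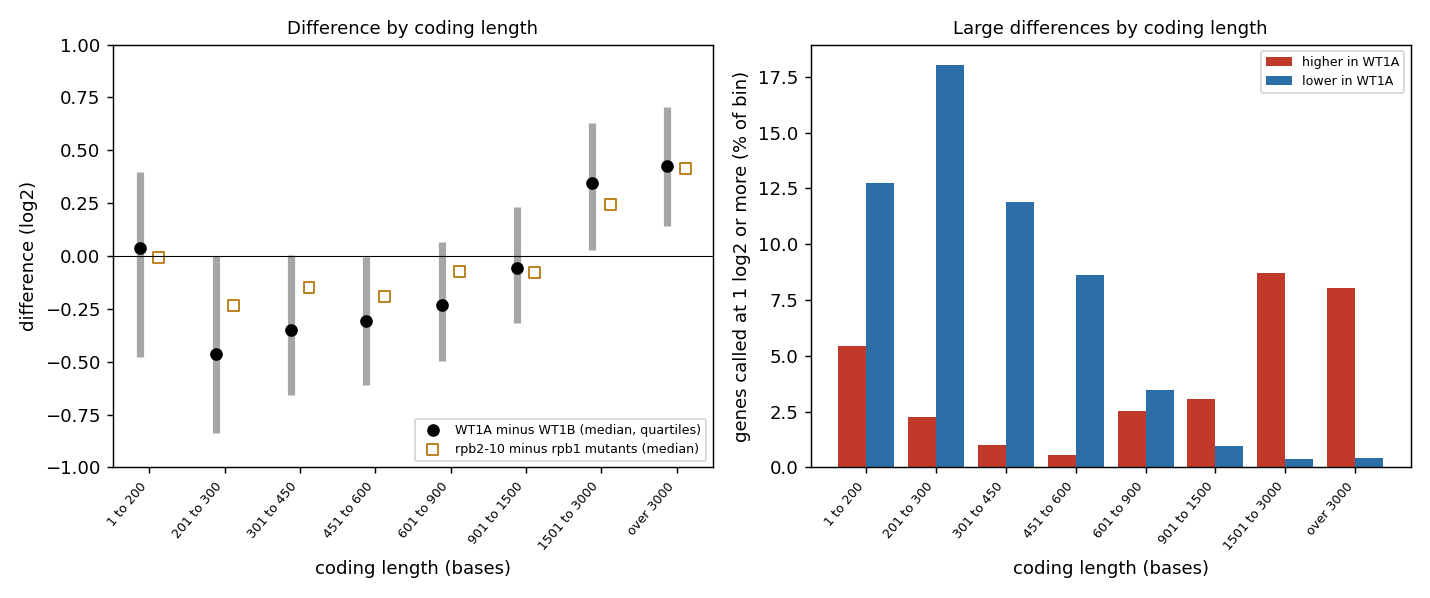
Left, median difference (log2) by coding length in bases for WT1A minus WT1B (black, bars from the lower to the upper quartile) and for rpb2-10 minus the rpb1 mutants (open squares). Right, percent of the genes of each bin called at 1 or more, higher (red) or lower (blue) in WT1A, where lower calls peak at 18.05% in genes of over 200 and up to 300 bases.

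Only 8 genes over 1500 bases were called lower by 1 or more. They were SAG1, FUS1, SLK19, YMR317W, LAS17, RPO21, LAS1 and BUD22, named after their values were seen. RPO21, with 5202 bases, was the longest of them and had a difference of -1.15 ± 0.07.

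Genes of glycolysis and of ergosterol synthesis were mostly higher in WT1A. Of 19 glycolysis and fermentation genes 16 were called higher and 1 lower, with a median of 0.49. The median was 0.21 after quantile normalization (10 called higher), 0.23 when centred on the other species' probe sets (14) and 0.27 after loess (13), against 0.50 after centring by length (15). PDC1, pyruvate decarboxylase, had 5.25, 5.22 and 5.27 in WT1A, against 4.39, 4.46 and 4.48 in WT1B. Of 28 ergosterol synthesis genes 23 were called higher and 1 lower, with HMG1, the reductase that sets the pace of sterol synthesis, at 1.04 ± 0.08 and ECM22, a sterol regulator, at 1.32 ± 0.09. Centred on the other species' probe sets, 14 ergosterol genes were called higher and 4 lower, and the median of 0.47 became 0.21. None of the glycolysis genes and 3 of the ergosterol genes reached 1. The shares of all genes were 34.6% called higher, 29% called lower and 4.84% called higher by 1 or more.

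Of 20 vitamin synthesis and transport genes 6 were called higher by 1 or more (30%), among them BIO3 and BIO5 of the biotin pathway at 1.67 ± 0.11 and 1.63 ± 0.10, and THI22 at 1.62 ± 0.09. Of 27 nitrogen catabolite genes 7 were, including DUR3, a urea and polyamine transporter, at 1.67 ± 0.11 and GLN3, the activator of nitrogen catabolite genes, at 1.62 ± 0.10. Of 34 glucose-repressed and alternative carbon genes 8 were, including SIP4, an activator of gluconeogenic genes, at 2.18 ± 0.20 and HXT5, a hexose transporter, at 1.72 ± 0.15. Of 13 subtelomeric genes 4 were, with COS10 at 1.86 ± 0.28. None of the genes of these 4 lists was called lower by 1 or more. Among all genes, 4.84% were called higher and 2.9% lower at that size. Centred on the other species' probe sets, 3 vitamin, 3 nitrogen, 5 alternative carbon and 2 subtelomeric genes reached 1 on the higher side, and 1 gene of each of the first 3 lists on the lower side. Centring by length gave 5, 4, 7 and 5 on the higher side, in that order, and 1 alternative carbon gene on the lower. Only 1 vitamin and 2 subtelomeric genes were called higher by 1 or more in both the wild types and the mutants. In the mutants, 22 of the 34 alternative carbon genes were called lower, 13 of them by 1 or more, and 4 higher. In that comparison 34.5% of all genes were called lower, 6.66% lower by 1 or more and 40.2% higher.

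Mitochondrial ribosomal proteins were lower, where 29% of all genes were called lower and 34.6% higher. Of 53 genes 46 were called lower and 1 higher, with array medians of 0.17, 0.17 and 0.25 in WT1A, against 0.76, 0.73 and 0.77 in WT1B. MRPL32 had -2.22 ± 0.10 and MRPS17 -1.35 ± 0.07. The list's median coding length was 714 bases, and centring by length gave 21 called lower, 6 called higher and a median of -0.12. Of 32 proteasome genes 19 were called lower and 4 higher, against 7 and 9 after centring by length, where the median turned from -0.24 to 0.04. RPN8, of the regulatory particle, had -1.09 ± 0.07. Of 119 cytoplasmic ribosomal protein genes 59 were called higher and 13 lower, with a median of 0.16. This median changed sign when centred on the other species' probe sets (-0.10) and after quantile (-0.07) or loess (-0.07) normalization. Centring by length gave 97 called higher, 1 called lower and a median of 0.47. Scaling by each array's median absolute deviation gave 76 called higher, 6 called lower and a median of 0.23. Of all genes, 57.4% were called after centring by length (1897 higher, 1229 lower) and 64.2% after this scaling (1909 higher, 1590 lower).

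Of 40 general stress genes 13 were called higher and 3 lower, where 34.6% of all genes were called higher and 29% lower. The 3 lower genes had large differences. HSP26, a small heat shock protein, had -1.18, -0.96 and -1.22 in WT1A, against 1.25, 1.40 and 0.65 in WT1B. STF2 had -1.73 ± 0.32 and SPI1 -1.34 ± 0.19. In STF2, WT1B replicate 3, at 1.54, lay above the others at 0.50 and 0.76. After centring by length, 10 general stress genes were called higher and 4 lower, with 2 higher and 1 lower by 1 or more. That setting called 57.4% of all genes. Over the alternatives, the smallest differences were -1.90 for HSP26, -0.86 for STF2 and -0.81 for SPI1.

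**Figure D5:**
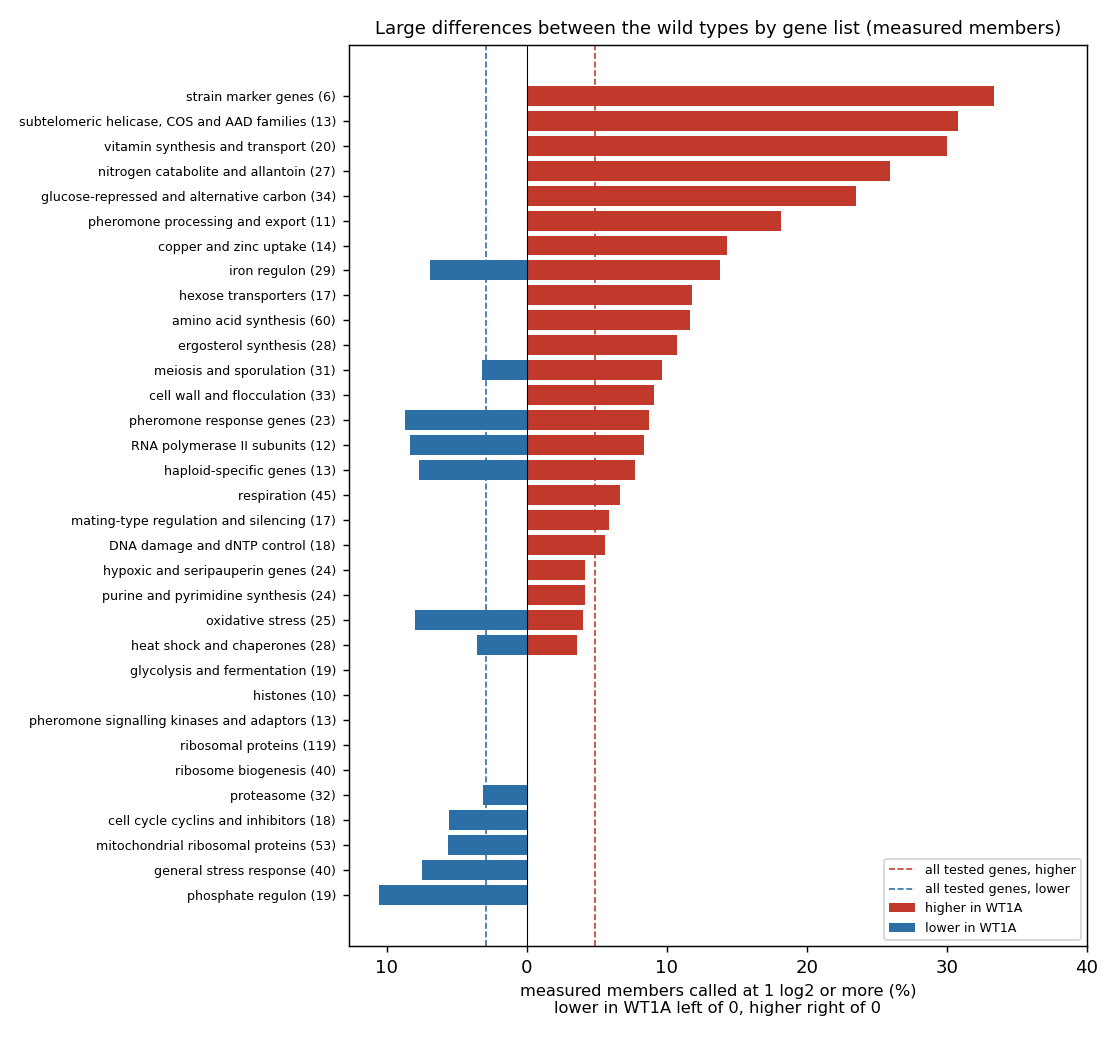
Percent of the measured members (number in brackets) of each gene list called at 1 log2 or more, higher in WT1A to the right (red) and lower to the left (blue), with dashed lines for all tested genes (4.84% and 2.9%). Vitamin, nitrogen, alternative carbon and subtelomeric lists stand to the right at 23.5 to 30.8%.

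At 1 or more, 125 genes were called in the same direction in the wild types and in the mutants, 83 higher and 42 lower. They make up 29.6% of the 422 genes of the wild types and 15.6% of the 801 genes of the mutants. Another 25 genes were called at that size in opposite directions. The mutant comparison had 8.04% of all genes called higher and 6.66% called lower at that size. Outside the mating lists, 75 of the shared genes were higher and 33 lower. ARO10, a decarboxylase of amino acid breakdown, had 2.17 in both comparisons, and LYS2 had 2.27 in the wild types and 1.96 in the mutants. HSP26 had -2.22 and -2.16, and STF2 had -1.73 and -1.61. In the mutants, 36 of the 40 general stress genes were called lower, 24 of them by 1 or more, and 1 was called higher. The median of that list was -1.31 in the mutants and 0.29 in the wild types. Of all genes, 34.5% were called lower and 40.2% higher in the mutants.

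Genes called higher by 1 or more lay beside each other more often than genes called lower. Of the 264, 48 had a tested neighbour also called higher (18.2%, against 9.36% of all genes with such a neighbour). Of the 158, 3 had a neighbour also called lower (1.90%, against 5.73%). Those 3 were MAK31, HTL1 and HSP30 on chromosome III. The pair HIS3 and DED1 on chromosome XV had 1.09 and 1.62, and GYP8 beside STE2 on chromosome VI had 1.09.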

How the data were processed

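The authors' deposited table holds log2 values of 10928 probe sets on 15 arrays. The submitters' processing notes list RMA and limma, with no version of either. Biotin-labelled cRNA from total RNA was hybridised, per the labels' protocols. What limma was used for, the filters and the build were not stated. Probe sets with 1 gene symbol numbered 5498, and 5449 genes were tested after the brightest probe set was taken for 47 genes. A further 3683 were controls or had no single gene name, and 1746 were for another species. Names, coding lengths and neighbours came from RefSeq, and 115 tested genes had shared probes. Each array was centred on its median over probe sets with 1 gene. limma 3.58.1 (R 4.3.3) fitted 1 mean per group over all 15 arrays, with moderated variances and Benjamini-Hochberg adjustment. The test was checked on simulated data in which few genes changed, equally up and down, with a constant offset between the array sets. That check did not cover data in which most genes are called or the difference moves with coding length. The number of arrays limits the precision. Where a group was at background on all arrays, the bound used the background percentile.

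Named genes were the members of the mating, haploid-specific and marker lists, the 15 highest and 15 lowest called genes without overlapping arrays, up to 3 per other list, RPO21, RPB2, and 5 each way of those large in both comparisons. The members and the 36 lists were chosen with earlier results of these data known. Alternatives covered centring, scaling, normalization, the arrays fitted, weights, variance trend, dim genes, shared probes, probe choice, the replicate block and left-out replicates.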

Additional observations from a re-analysis of the deposited data

Results flagged for a closer look

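For 14 named genes, all 3 WT1A arrays lay on one side of all 3 WT1B arrays while all 3 rpb2-10 arrays lay on the opposite side of all 6 rpb1 mutant arrays. Such a pattern held for 393 of all tested genes (7.21%). The values are log2 differences, WT1A minus WT1B and rpb2-10 minus the mean of both rpb1 mutants, and the difference between the comparisons was not tested. HXT5 had 1.72 in the wild types and -1.36 in the mutants, and PRM10 had 1.70 in the wild types and -0.60 in the mutants. DUR3 had 1.67 in the wild types and -0.86 in the mutants, and HMX1 had 1.41 in the wild types and -1.34 in the mutants. CYC7 had 1.28 in the wild types and -3.41 in the mutants, and NDE1 had 1.11 in the wild types and -0.51 in the mutants. HIS3 had 1.09 in the wild types and -4.57 in the mutants, and AAD6 had 1.06 in the wild types and -1.16 in the mutants. The -4.57 of HIS3 rests on rpb2-10, with a mean level of -5.63 near background, against -1.31 in rpb1-1 and -0.81 in rpb1S751F. PIR3 had 1.05 in the wild types and -4.09 in the mutants, and GTT2 had 1.04 in the wild types and -1.27 in the mutants. SSA3 had 1.02 in the wild types and -1.29 in the mutants, and ADE2 had 0.85 in the wild types and -0.38 in the mutants. RDH54 had 0.60 in the wild types and -0.55 in the mutants, and ATX1 had -2.19 in the wild types and 1.68 in the mutants. With 3 arrays per group, no formal test for single outlying arrays was made.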

How the results depend on the processing

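With no centring, 5429 genes were called (10 higher, 5419 lower) and 5321 at 1 log2 or more, since the median difference of all genes as deposited was -2.20. The 7 a-specific and 5 alpha-specific calls held under every alternative run, except that 6 a-specific genes were higher with no centring. Under the other alternatives the count of genes called stayed within 1.5 times that reported, from 3126 to 4203, the highest with array weights, whose estimation stopped before convergence. Leaving out 1 replicate gave 3130 to 3424 genes called and 386 to 454 at 1 or more. Quantile normalization gave 1673 higher and 1749 lower, and loess 1706 and 1773.

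Of 116 named genes, 48 kept sign and call under every alternative. With no centring, 56 changed sign by the common shift, with values of STE12 -2.21, STE4 -2.19, RME1 -2.13, RDH54 -1.64, STE5 -1.61, LEU2 -1.46, PDC1 -1.43, UTP10 -1.41, ADE2 -1.39, RPL43A -1.34, STE20 -1.33, SSA3 -1.21, GTT2 -1.20, ACO1 -1.20, HMG1 -1.20, PHR1 -1.19, PIR3 -1.19, ERG5 -1.18, AAD6 -1.18, HIS3 -1.15, NDE1 -1.13, ZAP1 -1.12, ARO1 -1.09, ZRT1 -1.05, RPB2 -1.04, CHS1 -1.01, RGT2 -0.9999, GDH2 -0.99, CYC7 -0.96, GSC2 -0.96, AXL1 -0.95, CAN1 -0.95, URA2 -0.95, SDH1 -0.95, REC8 -0.93, ECM22 -0.91, MAL11 -0.91, ARO3 -0.90, HMX1 -0.82, AAD10 -0.82, SIR1 -0.66, GLN3 -0.62, THI22 -0.61, BIO5 -0.60, BIO3 -0.57, DUR3 -0.57, FRE2 -0.56, PRM10 -0.54, HXT5 -0.52, IME2 -0.48, ARR3 -0.42, COS10 -0.38, YEL076C -0.29, ASG7 -0.0865, ARO10 -0.0671, SIP4 -0.0603. An added setting, the same values minus the median of all genes, changed the sign of STE12 -0.0052, which was not called. Centring on the other species' probe sets gave RME1 -0.15, STE12 -0.23, STE4 -0.21. Array weights gave HO 0.0459, STE12 -0.11, and centring within bins of coding length HTZ1 0.0296, STE12 -0.27, URA3 0.24. Leaving out 1 replicate at a time gave ranges of -0.20 to 0.0504 for HO, -0.11 to 0.0439 for SST2, -0.11 to 0.11 for STE12 and -0.0142 to 0.0888 for STE4, with the sign changed without WT1B replicate 2 for SST2 and without WT1B replicate 3 for the others. Of these, only HTZ1 had been called with all arrays. Calls were gained by 6 named genes under at least 1 alternative, by FAR1, FUS3, SST2 and RME1 at the values given with the haploid-specific genes, and with no centring by FAR1 at -2.47, FUS3 at -2.38, HO at -2.34, URA3 at -2.32 and SST2 at -2.27, while 6 lost theirs. The causes were not tested.

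The labels number the replicates alike, but same-numbered WT1A and WT1B arrays correlated in their deviations from the group means at 0.283, 0.0963 and 0.198, and not every array matched its own number best, so the numbers were not taken as pairs. With the replicate number as a block, 3514 genes were called, 422 at 1 or more. Values near background, as for HMRA1 in WT1B, limit differences to a bound.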
